A study of Homo sapiens with 4 samples.

Results

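The genes described here encode the core proteins of the spliceosomal small nuclear ribonucleoproteins (snRNPs) and their nearest relatives. Members were the protein-coding genes of the deposited table whose symbols begin with SNRP, SF3A, SF3B, PRPF and a digit, or LSM and a digit, leaving out SNRPN, and the rule found 45 of 16174 listed genes. They lie on 20 chromosomes. The cells were H9, an established human embryonic stem cell line, kept in the primed state. Cells of both arms carried a TetO-driven dCas9-BFP-KRAB, a nuclease-dead Cas9 joined to a repressor domain, integrated by a transposase. Both arms had been selected with puromycin and received doxycycline. One arm carried 4 pooled guides against the long non-coding RNA gene SNHG26 and the other arm carried non-targeting control guides. Poly(A) RNA taken after 2 or 3 days of doxycycline was copied to cDNA, amplified for 14 cycles and sequenced on nanopores, with 1 library for each arm and day. Each mean ± SD therefore has n = 2 and includes any effect of the day. The labels do not say whether the libraries came from separate cultures, so a p-value measures only the spread between these libraries.

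The spliceosome removes introns from pre-mRNA. Its building blocks are the U1, U2, U4, U5 and U6 snRNPs, each a small nuclear RNA bound by proteins. In all but U6 the RNA is encircled by a ring of Sm proteins, while U6 carries a ring of LSM proteins, and a related LSM ring in the cytoplasm takes part in mRNA decay. Proteins particular to each snRNP recognise the splice donor site (U1), hold the branch site (U2, through SF3A and SF3B) or form the catalytic core (U5 and U4/U6). Embryonic stem cells divide rapidly and transcribe many genes, and snRNP proteins are made there as housekeeping products.

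The targeted gene was listed at 0 and 0.933 TPM (reads scaled by gene span and to a fixed library total) with SNHG26 guides on day 2 and day 3, and at 2.98 and 4.03 TPM with control guides. Its log2 change was -1.69 (SE 0.58), with an exact two-sided permutation p of 0.33, the smallest that 2 libraries against 2 allow. In the limma fit its adjusted p was 0.935. Of 11 listed markers of primed stem cells, 10 had a value in all 4 libraries, and POU5F1, the master pluripotency factor, stood between 1050 and 1212 TPM. ZIC2 was listed at 0 throughout. Of 7 mesendoderm symbols sought only 3 were listed, and these summed to at most 1.98 TPM in any library. Of 5 amnion or trophectoderm symbols 1 was listed, KRT7, at no more than 1.29 TPM. Symbols that are not listed have no value here, which is not a measured 0. The 2 listed of 4 neuroectoderm symbols summed to between 17.1 and 24.5 TPM, nearly all from NES, which encodes the filament protein nestin. Genes of the mitochondrial genome took 23.2% and 18.5% of listed TPM with SNHG26 guides on day 2 and day 3, and 25.7% and 25.9% with control guides. At most 1044055, 1220265, 947338 and 1135936 reads lay behind the 4 libraries, in the same order.

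TPM in this table scales reads by genomic span, introns included, and the members show what that does to a level. For 7 members the values came out as whole reads over the listed span in all 4 libraries, within 0.0001 read, so the reads behind them are known. SF3B5, an SF3B subunit whose listed gene spans only 690 bases, rested on 80 and 95 reads with SNHG26 guides and 61 and 84 with control guides, in each arm day 2 before day 3. Those reads were worth 845, 899, 710.1 and 818 TPM. LSM3, a subunit of the LSM ring on a span of 22306 bases, rested on 94, 120, 83 and 99 reads, which were worth 30.7, 35.1, 29.9 and 29.8 TPM. The mean level of SF3B5 was thus 26.1 times that of LSM3 per span, on fewer reads. SF3B4 had 111, 177, 109 and 111 reads, PRPF6 had 68, 72, 86 and 69, and SF3A2 had 22, 32, 33 and 38. LSM11 had 4, 3, 1 and 2 reads, and LSM12 had 1, 2, 0 and 3. For the other 38 members only bounds exist, and levels below are compared between genes per genomic span and never as molecules. The exact Poisson 95% interval of the SF3B5 value ran from 543 to 912 TPM in the day 2 control library and from 728 to 1099 TPM in the day 3 library with SNHG26 guides, so these intervals overlapped. Intervals cover counting error only, since reads of amplified cDNA without molecular identifiers are not independent molecules.

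**Figure D1:**
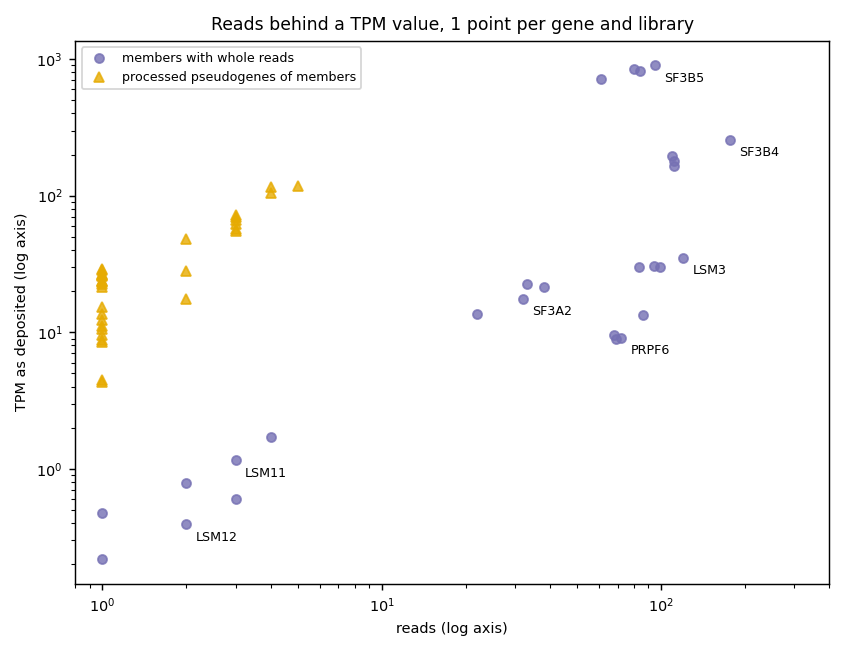
Reads (x, log axis) against deposited TPM (y, log axis) for the 7 members with whole reads (circles) and the 12 listed processed pseudogenes of members (triangles), 1 point per gene and library with values of 0 left out. Pseudogenes with at most 5 reads reach the TPM of members with many more reads, and SF3B5 and LSM3 lie at similar reads and far apart in TPM.

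Several members have close copies elsewhere in the genome, and reads of a copy can be counted for its parent or the reverse. The table lists 12 processed pseudogenes of members, all with whole reads and none with more than 5 in a library. Together they rested on 12 and 18 reads with SNHG26 guides and 9 and 19 with control guides, which were worth 259, 361, 217 and 353 TPM. Of the 12, 9 could be aligned to a coding transcript of the parent in GENCODE release 29, with identities from 93.5% to 100%. The copy at 100% was LSM12P1, beside LSM12. The highest by TPM was SNRPEP4 on chromosome 19 (5576660 to 5576938, minus strand), 98.6% identical to SNRPE over 279 bases. SNRPEP4 had 4, 5, 4 and 3 reads and 104.5, 117, 115 and 72.2 TPM, near the 135.7, 120.5, 132 and 125.7 TPM of SNRPE itself, which rested on at most 179 reads in a library. SNRPD2P1 on chromosome 10 (89978717 to 89979070, plus strand) was 93.5% identical to SNRPD2 and had 3, 3, 1 and 3 reads. The first 60 coding bases of both parents are shown beside their copies, and then 60 bases from base 3 of the SNRPB coding sequence beside SNRPN. These stretches show bases that tell the copies apart and do not stand for the whole alignments. Capitals mark the bases that differ within each pair.
SNRPE: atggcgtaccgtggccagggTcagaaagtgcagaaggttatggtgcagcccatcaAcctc
SNRPEP4: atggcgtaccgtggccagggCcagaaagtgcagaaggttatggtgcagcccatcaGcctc
SNRPD2: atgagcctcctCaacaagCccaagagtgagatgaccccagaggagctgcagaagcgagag
SNRPD2P1: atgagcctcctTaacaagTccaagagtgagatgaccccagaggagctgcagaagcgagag
SNRPB: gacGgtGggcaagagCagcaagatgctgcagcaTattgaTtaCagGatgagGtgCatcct
SNRPN: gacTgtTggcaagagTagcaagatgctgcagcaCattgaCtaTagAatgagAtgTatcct
Each pseudogene pair differs at 2 of the 60 bases and SNRPB differs from SNRPN at 9. SNRPN encodes a tissue-restricted counterpart of the SNRPB protein. Over 721 aligned bases the pair was 82.1% identical.

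Promoter windows were compared as a feature the choice of members did not use. RefSeq windows (GRCh38.p14, 250 bases before to 50 after the gene start) were found for 37 of the 45 members. The letters CCGGAAG, the core recognised by ETS-family factors, were sought on both strands and occurred in 17 of the 37 windows (45.95%), against 23.4% of 5685 protein-coding genes averaging 1 TPM or more and 10.7% of all 27305 windows. The nearest match lay within 100 bases of the start in 13 of the 17. The letters AAGATGG, a YY1 core, occurred in 7 windows (18.9%, against 9.08% and 6.06%), and TATAAA, the TATA box, in 1 window (2.70%, against 5.82% and 11.95%). Median GC content was 60.3% in members, 64.7% in the expressed coding genes and 58.3% in all windows. A match is a string of letters and not a measured site. The 4 stretches shown hold the match nearest the start and were those of the 17 lying outside every listed gene. Capitals mark CCGGAAG or its reverse complement CTTCCGG, and in SNRPC these overlap.
SF3B4, chr1:149927804-149927863, minus strand: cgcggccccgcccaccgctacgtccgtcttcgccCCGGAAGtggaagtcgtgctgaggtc
SNRPC, chr6:34757268-34757327, plus strand: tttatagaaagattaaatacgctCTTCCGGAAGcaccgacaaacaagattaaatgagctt
LSM8, chr7:118183949-118184008, plus strand: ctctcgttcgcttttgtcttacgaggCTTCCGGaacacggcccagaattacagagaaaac
PRPF6, chr20:63981072-63981131, plus strand: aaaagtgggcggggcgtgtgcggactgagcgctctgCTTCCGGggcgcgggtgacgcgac

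All 45 members had a value in at least 1 library and 43 had one in every library. Per genomic span, 13 had a mean of at least 100 TPM, 21 lay between 10 and 100, and 11 lay under 10. Their summed TPM was 4716 and 5162 with SNHG26 guides and 4668 and 4442 with control guides, in each arm day 2 before day 3, or from 0.465% to 0.541% of listed TPM. The day 3 library with SNHG26 guides held the highest sum, and it was also the library with the lowest mitochondrial share. The part of that share in the sums was not tested. In bulk RNA, fewer expressing cells and less RNA per cell cannot be told apart. The order of the role classes by summed TPM was the same in each library for the Sm ring, the U2 proteins and the LSM ring. These classes held most of the sum. Such sums depend on the spans and the number of genes in a class. SF3B5 alone, on its span of 690 bases, gave from 710 to 899 TPM of the U2 sum.

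**Figure D2:**
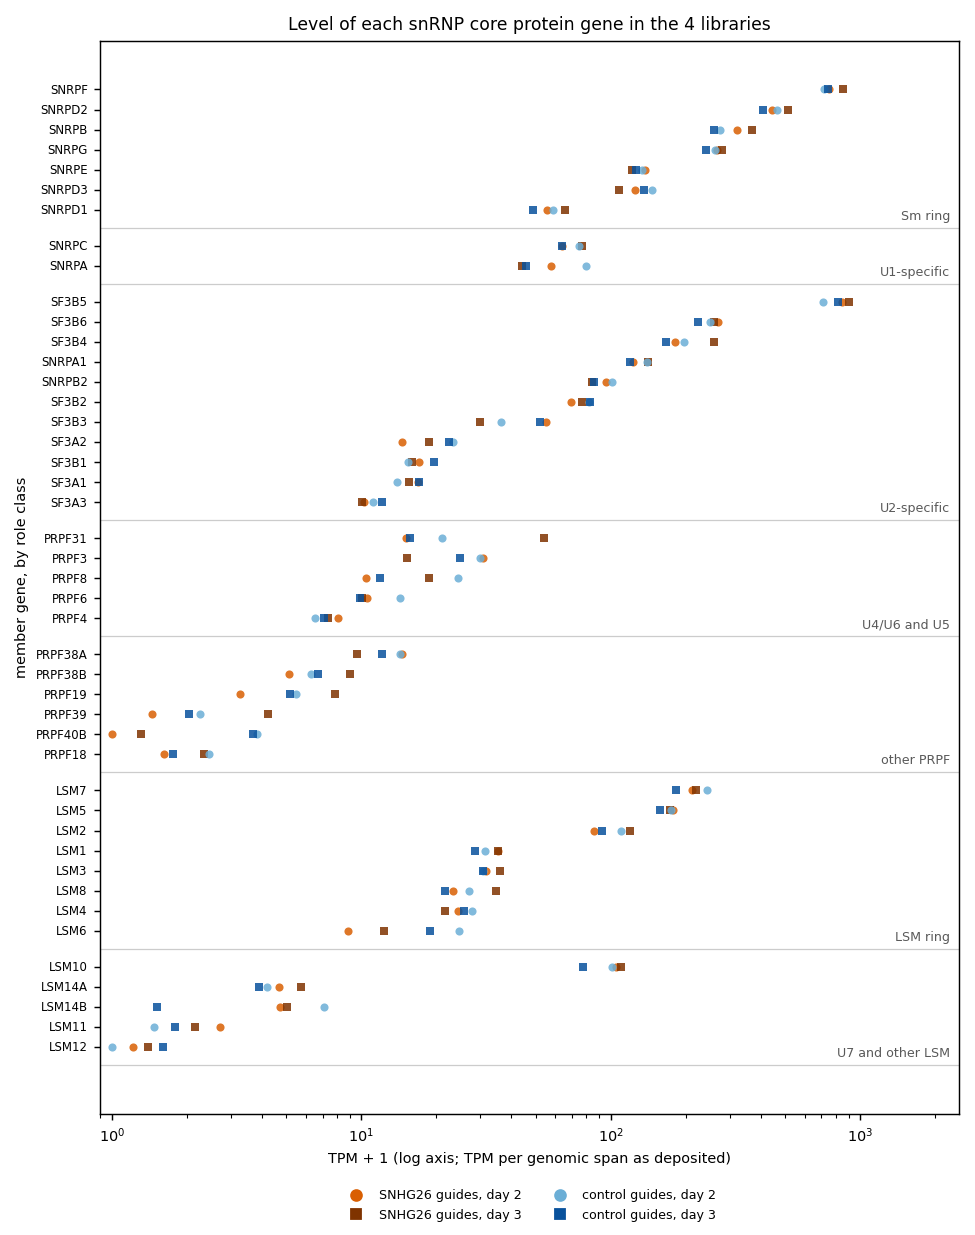
TPM + 1 per genomic span (x, log axis) of 44 of the 45 members (y, grouped by role class and ordered by mean), with 1 point per library, circles for day 2 and squares for day 3. Points of a gene lie close together for the Sm ring and spread widely for PRPF31, PRPF39 and LSM14B.

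The Sm ring binds the newly made small nuclear RNAs. It was the highest class by summed TPM, at 2093 and 2303 with SNHG26 guides and 2049 and 1955 with control guides. SNRPF (chromosome 12, 95858952 to 95903828, plus strand), the SmF subunit, stood at 751 and 852 TPM with SNHG26 guides and 714 and 739.9 TPM with control guides. Its listed span is long, so its reads are known only within wide bounds: the day 2 control value corresponds to 722 reads on the shortest coding transcript and to 3989 on the full span. SNRPD2 stood at 443, 511, 464 and 407 TPM, SNRPB at 319, 369, 273 and 258, and SNRPG at 265.5, 279, 262 and 240.2 TPM. SNRPE ranged from 120.5 to 135.7 TPM, SNRPD3 from 107 to 145 TPM and SNRPD1 from 48.0 to 64.4 TPM. Mean listed levels of the 7 subunits ran from 56.2 TPM for SNRPD1 to 764 TPM for SNRPF. These are levels per genomic span and give no measure of the molecules of each subunit.

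Both U1 proteins lay in the middle of the range. SNRPC, which helps U1 meet the splice donor site, stood at 62.6 and 76.1 TPM with SNHG26 guides and 73.4 and 62.6 TPM with control guides. SNRPA, which binds a stem-loop of the U1 RNA, stood at 56.8, 43.3, 78.3 and 45.0 TPM. In each arm the day 2 value of SNRPA was the higher. For SNRPC the 2 arms covered nearly the same range.

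The 11 U2 proteins were led by SF3B5, SF3B6 and SF3B4, with means of 818, 249.5 and 199.8 TPM. SF3B6, the subunit that lies at the branch site, stood at 269 and 258 TPM with SNHG26 guides and 249 and 222 TPM with control guides. SNRPA1 and SNRPB2, partners that bind the U2 RNA together, had means of 129.96 and 90.7 TPM. SF3B2 had a mean of 76.7 TPM and SF3B3, a scaffold of the SF3B complex, 42.3 TPM. SF3B1, whose product clamps the branch site, stood between 14.4 and 18.6 TPM, with SF3A2, SF3A1 and SF3A3 at means of 18.8, 14.9 and 9.92 TPM.

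The U4/U6 and U5 proteins were lower per span. PRPF31, which bridges U4 and U5, stood at 14.2 and 53.0 TPM with SNHG26 guides and 20.1 and 14.6 TPM with control guides. The single high library set its mean of 25.5 TPM. PRPF3 stood at 29.8, 14.2, 28.99 and 23.9 TPM and PRPF4, its U4/U6 partner, at 7.08, 6.37, 5.50 and 6.11 TPM. PRPF8, the scaffold of the catalytic core, stood at 9.48, 17.7, 23.5 and 10.9 TPM, so that the day 3 library was the higher with SNHG26 guides and the lower with control guides. PRPF6, which joins U5 to U4/U6, ranged from 8.92 to 13.3 TPM.

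Among the other PRPF genes, PRPF38A, a protein of the assembled spliceosome before activation, ranged from 8.61 to 13.5 TPM and PRPF38B from 4.12 to 7.996 TPM. PRPF19, a ubiquitin ligase of the spliceosome, ranged from 2.27 to 6.82 TPM, PRPF39 from 0.453 to 3.22 TPM and PRPF18, a factor of the second splicing step, from 0.628 to 1.46 TPM. PRPF4B, a kinase of the spliceosome, was not analysed here.

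The LSM ring summed to 590 and 646 TPM with SNHG26 guides and 661 and 550.3 TPM with control guides. LSM7 stood at 211, 219.8, 242 and 182 TPM and was the highest of the ring, followed by LSM5 (156 to 176 TPM) and LSM2 (84.6 to 119 TPM). LSM1, which replaces LSM8 in the cytoplasmic ring, stood at 34.3, 34.2, 30.5 and 27.5 TPM. LSM8, its nuclear counterpart, stood at 22.3, 33.8, 26.02 and 20.7 TPM. LSM4 ranged from 20.7 to 26.8 TPM. LSM6 (chromosome 4, 146175703 to 146200000, plus strand) was the lowest, at 7.88 and 11.3 TPM with SNHG26 guides and 23.7 and 17.8 TPM with control guides.

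LSM10, which with LSM11 makes the U7 ring used for histone mRNA ends, stood at 104 and 109.5 TPM with SNHG26 guides and 100.6 and 76.6 TPM with control guides. Its partner LSM11 stood at 1.72, 1.15, 0.473 and 0.790 TPM, on 1 to 4 reads. LSM14A, a protein of cytoplasmic RNA granules, ranged from 2.90 to 4.76 TPM, and its paralog LSM14B from 0.521 to 6.07 TPM. LSM12 was the only member under the filter, at 0.219, 0.392, 0 and 0.605 TPM. Its count of 0 in the day 2 control library allows up to 0.724 TPM, the worth of 3 reads, above its value in every library. The pseudogene LSM12P1, 100% identical to a coding transcript of LSM12 over 588 bases, had 1, 1, 1 and 0 reads in the same order. Reads of the pair may be exchanged, so the low counts of LSM12 are uncertain.

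**Figure D3:**
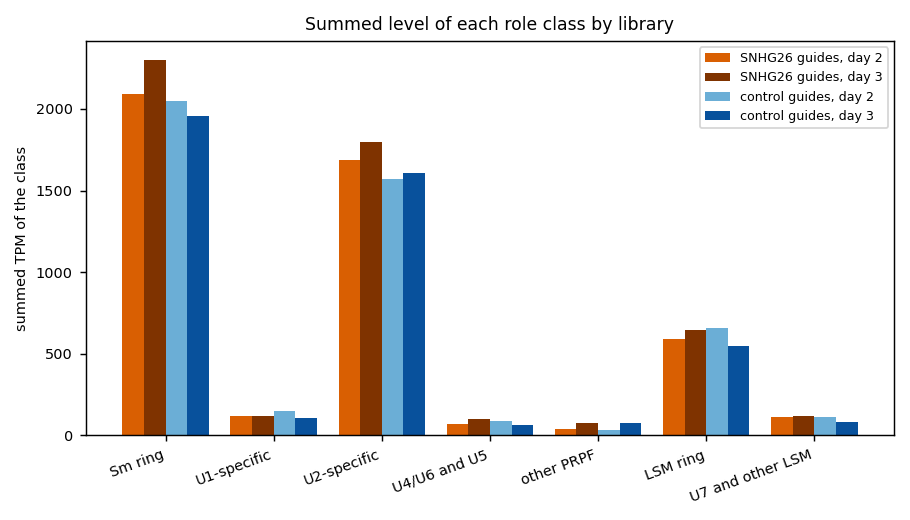
Summed TPM (y, from 0) of each role class (x) in the 4 libraries, 1 bar per library with no error bar since each bar is 1 library. The Sm ring is highest in every library, between 1955 and 2303 TPM, followed by the U2 proteins, between 1570 and 1799 TPM. Sums are of values per genomic span and depend on the spans and number of genes in a class.

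The median spread between libraries was smaller in members with more reads on the full span, which for most members is an upper bound. The highest value was a median of 1.29 times the lowest in the 21 members with at least 100 reads on the full span, and 1.64 times in the 22 with fewer reads and a value in every library. SNRPE varied least, at 1.13 times. Some members with at least 100 reads on the full span spread more widely, among them SF3B3 at 1.86 times and PRPF3 at 2.09 times. On the shortest coding transcript of SF3B3 its values correspond to only 9.30 to 16.1 reads.

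The main comparison asked whether snRNP genes differ when SNHG26 is repressed. No member passed an adjusted p of 0.05 in limma, of 44 tested, where 0% of all 8274 genes tested passed. At an unadjusted p under 0.05 there were 2 members, PRPF40B and LSM6, or 4.55% of the members against 4.07% of all genes. The median log2 change of the members was 0.05, beside 0.04 over all genes tested. In 11 members both libraries with SNHG26 guides lay above both control libraries (25% of the members, against 16.1% of all genes), and in 7 both lay below (15.9% against 13.2%). Under median ratio scaling these counts were 7 and 7 (14.4% of all genes each way). Under quantile normalization they were 6 and 7 (15.3% and 13.2% of all genes).

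The Sm ring held 3 members whose arms did not overlap on the higher side, SNRPF, SNRPB and SNRPG, and 1 on the lower side, SNRPD3, beside 16.1% and 13.2% of all genes. Under median ratio scaling SNRPB and SNRPG were left on the higher side, and under quantile normalization SNRPB, with SNRPD3 on the lower side under both. SNRPB (chromosome 20, 2461634 to 2470853, minus strand) had means of 344 ± 34.9 (SD, n = 2) with SNHG26 guides and 265.7 ± 10.5 (SD, n = 2) TPM with control guides, a log2 change of 0.37 (SE 0.16). It was higher on both days, and its adjusted p in limma was 0.935. SNRPN, which shares sequence with SNRPB, stood at 154, 176, 152 and 162 TPM, and reads of the pair may be exchanged. SNRPD3 (chromosome 22, 24555958 to 24582052, plus strand) had 115.6 ± 11.9 (SD, n = 2) TPM with SNHG26 guides and 140.6 ± 6.94 (SD, n = 2) TPM with control guides. Its log2 change was -0.28 (SE 0.19), lower on both days and short of the threshold in limma (adjusted p 0.935). SNRPF had a log2 change of 0.14 (SE 0.13), which was 0.0465 without the day 3 library with SNHG26 guides and 0.0639 under quantile normalization. Without that same library SNRPD3 was at -0.178.

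In the LSM ring, LSM6 had the largest change among members averaging 5 TPM or more, -1.04 (SE 0.34), with a limma unadjusted p of 0.0364 and an adjusted p of 0.935. Its highest value with SNHG26 guides, 11.3 TPM, was below its lowest value with control guides, 17.8 TPM. On the full span these correspond to at most 26.2 and 42.1 reads with SNHG26 guides and 71.6 and 64.4 with control guides. On the shortest coding transcript of GENCODE release 29, 14040 bases, they correspond to 15.2, 24.3, 41.4 and 37.2 reads. LSM1 differed the other way, by 0.23 (SE 0.24), and LSM7 by 0.03 (SE 0.21), a sign that was negative under both other scalings. In the ring of 8, LSM1 and LSM3 did not overlap between the arms on the higher side and LSM4 and LSM6 on the lower, beside 16.1% and 13.2% of all genes. LSM3 overlapped under both other scalings.

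PRPF40B, a counterpart of a yeast U1 protein (chromosome 12, 49568218 to 49644666, plus strand), was listed at 0 and 0.308 TPM with SNHG26 guides and 2.83 and 2.69 TPM with control guides. Both control libraries lay above both libraries with SNHG26 guides. Its limma unadjusted p was 0.0319 and its adjusted p 0.935. On the full span the control values correspond to at most 27.0 and 30.6 reads, and the day 3 value with SNHG26 guides to at most 3.60. On the shortest coding span of 14123 bases the control values correspond to 4.98 and 5.65 reads. There the count of 0 allows up to 1.55 TPM, the worth of 3 reads, against 0.286 TPM on the full span. The listed gene overlaps FMNL3 on the opposite strand and holds the pseudogenes PARK7P1 (mean 22.4 TPM) and POLR2KP1 (mean 9.99 TPM) on its own strand, so its reads are uncertain.

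Of the 11 U2 proteins, 2 did not overlap on the higher side, SF3B5 and SF3B6, and 3 on the lower, beside the 16.1% and 13.2% of all genes. Neither higher one was left under quantile normalization, while the 3 lower ones, SF3A2, SF3A3 and SF3B2, did not overlap under any of the 3 scalings. SF3A2 (chromosome 19, 2236824 to 2248655, plus strand) had 15.6 ± 2.91 (SD, n = 2) TPM with SNHG26 guides and 22.0 ± 0.590 (SD, n = 2) TPM with control guides. Its log2 change was -0.48 (SE 0.28), on the 22 to 38 reads given above, with a limma adjusted p of 0.935. It overlaps PLEKHJ1 on the opposite strand by 881 bases, and that gene has a mean of 165 TPM. Without the day 2 library with SNHG26 guides the change of SF3A2 was -0.3. SF3B5 (chromosome 6, 144094884 to 144095573, minus strand) had a log2 change of 0.19 (SE 0.14), which was 0.0925 without the day 2 control library, and SF3B2 and SF3A3, both lower in each library with SNHG26 guides, changed by -0.17 (SE 0.20) and -0.20 (SE 0.28). None of these passed. SNRPA of U1 had a change of -0.25 (SE 0.37), which was 0.14 without the day 2 control library. SNRPC of U1 had a change of 0.03 (SE 0.24), negative under both other scalings.

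Among the U4/U6 and U5 proteins PRPF31 had a log2 change of 0.65 (SE 0.70) and -0.26 without the day 3 library with SNHG26 guides. LSM10 of the U7 ring had 0.28 (SE 0.23), higher with SNHG26 guides on both days, and 0.0870 without the day 3 control library. Of the 4 tested genes of the U7 ring and other LSM genes, 3 did not overlap on the higher side and 0 on the lower. All genes stood at 16.1% and 13.2%. The 3 were LSM10, LSM11 and LSM14A, under each of the 3 scalings. LSM11 rested on 4 and 3 reads against 1 and 2, too few to show a difference. PRPF4 of U4/U6 did not overlap on the higher side either, but overlapped under median ratio scaling.

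The guide change was then taken on each day from its own pair of libraries. On day 2 the members had a median log2 change of -0.10 and 19 of 44 were higher with SNHG26 guides (43.2%, beside 46.1% of all genes). On day 3 the median was 0.21 and 28 of 44 were higher (63.6%, beside 51.6%). Over all genes the medians were 0 and 0.03. Related lists, described below, were set beside them in the same way. The HNRNP and SRSF genes had medians of -0.07 and 0.16, and genes of Sm ring assembly and import had -0.17 and 0.15. Further snRNP proteins had 0.09 and -0.05, and proteins of the catalytic spliceosome 0.12 and 0.08. Decay partners of the cytoplasmic LSM ring had 0.13 and 0.001. Under median ratio scaling the member medians were -0.08 and 0.12, with 26 of 44 higher on day 3 (59.1%, beside 47.6% of all genes). The mitochondrial share of TPM was 18.5% in the day 3 library with SNHG26 guides and 25.9% in its control, and the part of that gap was not tested. Of the 44 members, 21 had the same direction on both days (47.7%, beside 46.5% of all genes).

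In limma's test of the difference between the days, no member passed the adjusted threshold (0.0967% of all genes did). With 1 library for each arm and day this difference has no replicate. The fit takes its error from the guide and day differences. Variation between single libraries therefore cannot be told apart from a guide change that differs between the days. At an unadjusted p under 0.05 there were 2 of 44 members, beside 3.52% of all genes. These were PRPF8, whose guide change was -1.22 on day 2 and 0.66 on day 3, a difference of 1.88 (SE 0.60), and SF3B3, with 0.60 and -0.79, a difference of -1.39 (SE 0.48). The limma adjusted p was 0.961 for both. On the full span their values correspond to 44.5 to 100 reads for PRPF8 and 236 to 408 for SF3B3. On the shortest coding transcript they correspond to 0.833 to 1.87 reads for PRPF8 and 9.30 to 16.1 for SF3B3. A value above 0 from whole reads needs at least 1 read, so the 641-base PRPF8 transcript gives no lower bound. SF3B3 (chromosome 16, 70523791 to 70577670, plus strand) stood at 54.1 and 29.01 TPM with SNHG26 guides and 35.2 and 50.9 TPM with control guides, so that each arm had 1 high and 1 low library. In 14 members the day 3 library with SNHG26 guides and the day 2 control library both lay above the other pair (31.8%, beside 15.7% of all genes), and in 3 both lay below (6.82%, beside 12.5%). These counts were 14 and 4 under median ratio scaling, beside 13.7% and 13.9% of all genes. Under quantile normalization they were 13 and 4, beside 14.7% and 12.8%. Among the 37 members averaging 5 TPM or more they were 10 and 3, beside 17.4% and 10.9% of genes at that level. The 14 were SNRPD1 and SNRPD2 of the Sm ring, SNRPC of U1, SF3B4 and SNRPA1 of U2, LSM2, LSM7 and LSM8 of the U6 ring, PRPF8, PRPF31, PRPF18, PRPF19, PRPF39 and LSM14B. The 3 were U2 proteins, SF3B3, SF3B1 and SF3A1.

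**Figure D4:**
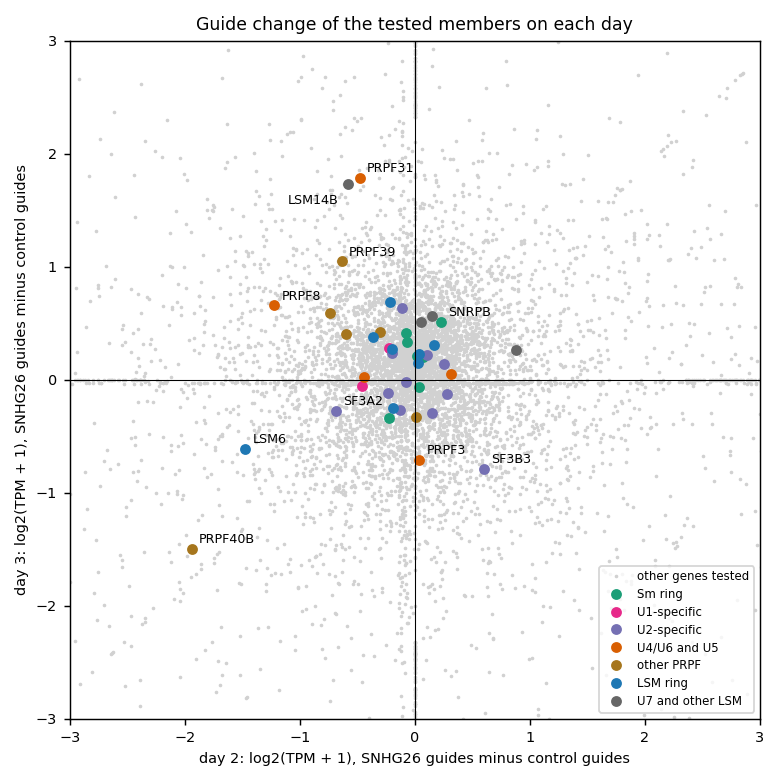
Difference in log2(TPM + 1) between SNHG26 guides and control guides on day 2 (x) and day 3 (y) for 43 of the 44 tested members, coloured by role class, over the genes tested in grey, of which 802 lie outside the axes. LSM6, PRPF40B and SF3A2 lie low on both days, while PRPF8, PRPF31 and SF3B3 change sign between the days.

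Between day 3 and day 2 no member passed the adjusted threshold in limma (0.0363% of all genes passed) and 1 of 44 had an unadjusted p under 0.05 (2.27%, beside 6.61% of all genes). In 2 members both day 3 libraries lay above both day 2 libraries (4.55%, beside 17.1% of all genes) and in 7 they lay below (15.9%, beside 18.4%). These counts were 5 and 7 under median ratio scaling, beside 18.1% and 18.4% of all genes, and 3 and 9 under quantile normalization, beside 17% and 19.3%. The median day difference of the members was 0.01, with 0.12 in the arm with SNHG26 guides and -0.14 in the control arm.

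Members lower on day 3 in both arms were led by PRPF3, at -0.64 (SE 0.33), SNRPA, at -0.59 (SE 0.24), and PRPF38A, at -0.42 (SE 0.26). PRPF38B, at 0.45 (SE 0.32), and SF3B5, at 0.15 (SE 0.14), were higher on day 3 in both arms. The limma adjusted p was at least 0.760 for these 5. Single libraries moved these values. Without the day 2 control library SF3B5 was at 0.0206 and SNRPA at -0.36, and without the day 3 library with SNHG26 guides PRPF3 was at -0.285, PRPF38A at -0.258 and PRPF38B at 0.244. PRPF38B rested on at most 13 reads in a library on its full span.

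Other genes of the pathway gave no call either. None passed the adjusted threshold between the guides in limma among 28 tested of 30 named further snRNP proteins, 25 of 28 proteins of the catalytic spliceosome, 18 of 23 genes of Sm ring assembly and import, and 8 of 10 decay partners of the cytoplasmic LSM ring. At an unadjusted p under 0.05 the counts were 0, 0, 0 and 1, beside 4.07% of all genes. The median log2 changes were 0.15, 0.10, 0.01 and 0.14, beside 0.04 over all genes. SNRNP40, a U5 protein, stood at 40.8 and 44.0 TPM with SNHG26 guides and 16.4 and 28.8 TPM with control guides, a log2 change of 0.93 (SE 0.36, limma adjusted p 0.935), which was 0.54 without the day 2 control library. DDX23, a helicase of U5, had -0.90 (SE 0.70), which was -0.035 without the day 3 control library. SLU7, a second-step factor, had 1.43 (SE 0.70), which was 0.697 without the day 2 library with SNHG26 guides and 0.945 without the day 3 control library. MFAP1, a protein of the spliceosome before activation, had -0.35 (SE 0.30). WDR77, a partner of the methyltransferase that prepares Sm proteins, stood at 14.8, 11.9, 9.43 and 9.32 TPM, a change of 0.46 (SE 0.30), and no assembly gene averaging 5 TPM or more was lower on both days. EDC4 and DCP2 of the decapping machinery had -0.08 (SE 0.30) and 0.17 (SE 0.47).

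The HNRNP and SRSF genes, splicing regulators outside the snRNPs, had 0 of 29 tested genes past the limma threshold and 1 at an unadjusted p under 0.05, beside 4.07% of all genes. Their median log2 change was 0.09. SRSF1 stood at 96.0 and 96.7 TPM with SNHG26 guides and 64.9 and 30.6 TPM with control guides, a change of 1.09 (SE 0.42). It was 0.563 without the day 3 control library. SRSF8 was listed at 0 and 3.03 TPM with SNHG26 guides and 24.9 and 8.07 TPM with control guides, with an unadjusted limma p of 0.0331 and an adjusted p of 0.935.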

How the data were processed

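The deposited table gives TPM per gene and library, and the labels name 4 libraries. Per the submitters' processing notes, minimap2 2.24-r1122 and GRCh38 were used. The counting tool, annotation and filters are not given in the sources used here. The TPM values deposited by the authors came out as whole multiples of 1 read over the listed span for 2853 of 13840 genes with a value (20.6%, within 0.0001 read), which gave the worth of a read in each library. One read on 10 kb was worth 0.729, 0.653, 0.803 and 0.672 TPM (SNHG26 guides, then control guides, day 2 first). Reads were recovered for too few genes for a count test. Where reads are given as bounds, they take the full listed span.

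Changes are on log2(TPM + 1), which understates low genes. Testing used limma 3.58.1 (R 4.3.3, eBayes with a trend) on genes averaging 1 TPM or more. Benjamini-Hochberg adjustment was over 8274 genes, with a threshold of 0.05. The code was tried on simulated data, where the direction of the median changes was required to be right. That trial gives no measure of what these libraries could detect. Groups follow the guides in the labels. Libraries pair by the day of doxycycline that the labels give, and same-day deviations from the arm means correlated at 0.0464. Alternatives were pseudocounts of 0.1 and 5, other filters, median ratio scaling, quantile normalization, no trend, a replicate block and leaving out each library.

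Members and gene lists were chosen with earlier results of these data known. Changes are named for the highest member of each role class, the 4 members each way with the largest guide change and the 3 with the largest day change among those averaging 5 TPM or more and moving 1 way, and members listed at 0 or under the filter, and for 1 gene each way per related list. Changes of SF3B2, SF3A3, LSM11, PRPF8 and SF3B3 were singled out after their values were seen. One member's own values are not reported here. Sequences are from GENCODE release 29 transcripts and RefSeq windows, aligned with Biopython 1.88. Of the members, 11 overlap another listed gene with a value, and whether counting used strand is not stated.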

Additional observations from a re-analysis of the deposited data

How the results depend on the processing

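No member, and no gene of the related lists, passed between the guides under any of the 13 alternatives, each of which ran. This includes the replicate block, which left 0 members at an unadjusted p under 0.05 and changed no call of a member. No member passed between the days, or in the test of the difference between the days, under any alternative. Of all genes, 3 passed between the days, and 0 with a pseudocount of 0.1 or 5, no filter, at least 20 reads, quantile normalization, no trend, the replicate block, or any library left out. The 11 members higher without overlap became 7 under median ratio scaling and 6 under quantile normalization, beside 14.4% and 15.3% of all genes. With 1 library left out, where the lone library is assumed to vary like the others, they ran from 14 to 22, and the lower ones from 10 to 14, beside 30.2% to 35.1% and 26.6% to 32.3% of all genes, since fewer libraries overlap less often. With a library left out, the median guide change of the members ran from 0.0165 to 0.144, the median day change from -0.134 to 0.0784 and SNHG26 from -2.16 to -1.21. SNHG26 was -3.47 with a pseudocount of 0.1 and -0.64 with 5. Under median ratio scaling and quantile normalization the median guide change was 0.011 and -0.00416, LSM7 was -0.00431 and -0.0191, and SNRPC was -0.0132 and -0.025. With a library left out, LSM7 ran from -0.168 to 0.238, SNRPC from -0.113 to 0.165, PRPF31 from -0.262 to 1.57, SNRPA from -0.648 to 0.139 and DCP2 from -0.252 to 0.583. The cause was not tested. Of 26 single-gene changes, the other 21 kept their direction under each alternative that tested them. Depth limits the low members: 8 had fewer than 10 reads on the full span in at least 1 library.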
